A study of Mus musculus with 12 samples.

Results

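The 10 genes described here mark epithelial and mesenchymal character: the cadherins Cdh1 and Cdh2, the surface protein Epcam, the claudin Cldn6, the keratins Krt8 and Krt18, the filament protein Vim, and the transcription factors Snai1, Zeb1 and Zeb2. They were taken by symbol from the 57180 genes of the deposited transcript-to-gene table, and each had reads in every library. All 10 were among the 25446 genes with at least 10 estimated reads over the 12 RNA-seq libraries. The cells were E14 mouse embryonic stem cells (ESCs; male, 129/Ola) carrying a doxycycline-inducible repressor at the Tigre locus of 1 chosen clone, with guides delivered on a piggyBac vector under antibiotic selection. Neg cells held scramble guides, and 3xKD cells held guides against Pcx, Me1 and Me2, which encode pyruvate carboxylase and a pair of malic enzymes. Each line was sampled as ESCs in 2iLIF, the medium that keeps naive pluripotency, and as epiblast-like cells (EpiLCs) on day 2 of differentiation in Fgf2, Activin A and XAV939, giving 4 groups of 3 libraries, with low oxygen throughout. The induction with doxycycline is given in the study's text and not in the sample labels. No library is labelled as uninduced, so an effect of the knockdown and any other difference between the lines cannot be told apart. Knockdown effects, rises and falls below mean the difference of 3xKD from Neg cells. The labels' cell-type field assigns ESCs to all Neg and EpiLCs to all 3xKD libraries, whereas the sample titles give both states for both lines; the titles were used.

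Totals ran from 11221023 to 19652197 estimated reads per library. Pcx, Me1 and Me2, which check the labels, were lower in each of the 3xKD libraries than in any Neg library of the same state, at 0.453- to 0.539-fold in the ESCs and 0.482- to 0.508-fold in the EpiLCs. The summed level of 8 naive markers was 4156 to 4277 CPM (counts scaled to the effective library size) in the Neg ESCs, 2922 to 2975 CPM in the 3xKD ESCs, 308 to 321 CPM in the Neg EpiLCs and 398 to 415 CPM in the 3xKD EpiLCs. The sum of 8 formative markers was 269 to 283, 302 to 310, 3071 to 3440 and 1763 to 1829 CPM in the same order. Both lines thus carried the markers of their labelled state. The 3xKD ESCs had lower naive and higher formative sums than the Neg ESCs. In EpiLCs the 3xKD sums were higher for naive and lower for formative markers than the Neg sums. The part of these differences in the values below was not tested, in ESCs or in EpiLCs. The study's general statement on replication is of biological replicates, while the labels do not say how the 3 libraries of a group were grown, so the p-values are for the spread between these libraries. Under the knockdown the 454 genes of chromosome 16 averaging 1 CPM or more had a median difference of 0.30 on the log2 scale in ESCs and in EpiLCs, where the medians of the other chromosomes lay between -0.052 and 0.064. None of the 10 genes lies on chromosome 16, and the list genes that do are pointed out where they are named; its part in their values was not tested.

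As background, E-cadherin (the product of Cdh1) joins neighbouring cells through adherens junctions and is the main cadherin of ESCs and of the epiblast, which is itself an epithelium. N-cadherin (Cdh2) is the cadherin of many mesenchymal and neural cells. In an epithelial-mesenchymal transition (EMT), as at the primitive streak, Snai1, Zeb1 and Zeb2 repress epithelial genes by binding E-box motifs, cell junctions and keratins are lost, and vimentin filaments and matrix proteins take their place. A call required a Benjamini-Hochberg adjusted p under 0.01 in the quasi-likelihood test of edgeR together with a log2 fold change beyond 0.58 in size, the thresholds of the study. The difference between the knockdown effects of the 2 states was called on the adjusted p alone.

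Of the 7 genes with a RefSeq promoter window 5 held a CACCTG or CAGGTG E-box, the letters that Snai and Zeb proteins bind, within the 250 bases before the start. The windows of the 4 epithelial genes among them are shown because the knockdown rises of Cldn6, Krt8 and Krt18 and the rise of Epcam with differentiation are described below. Capitals mark the E-box, each sequence reads 5′ to 3′ along the gene's strand and ends at the base before the start, and coordinates are those of GRCm38.p6 in RefSeq, a different build from the counts.
Epcam (chr17:87635729-87635978, plus strand): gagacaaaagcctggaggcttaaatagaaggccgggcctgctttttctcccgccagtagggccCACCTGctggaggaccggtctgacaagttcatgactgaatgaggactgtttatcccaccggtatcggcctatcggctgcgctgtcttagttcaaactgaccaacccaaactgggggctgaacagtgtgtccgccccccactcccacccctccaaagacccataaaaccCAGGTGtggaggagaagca
Cldn6 (chr17:23679115-23679364, plus strand): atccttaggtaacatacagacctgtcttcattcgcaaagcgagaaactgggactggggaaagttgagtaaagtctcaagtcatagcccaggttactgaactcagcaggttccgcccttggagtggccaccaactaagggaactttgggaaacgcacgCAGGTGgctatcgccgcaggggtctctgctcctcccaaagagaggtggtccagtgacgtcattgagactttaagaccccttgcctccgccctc
Krt8 (chr15:102004343-102004592, minus strand): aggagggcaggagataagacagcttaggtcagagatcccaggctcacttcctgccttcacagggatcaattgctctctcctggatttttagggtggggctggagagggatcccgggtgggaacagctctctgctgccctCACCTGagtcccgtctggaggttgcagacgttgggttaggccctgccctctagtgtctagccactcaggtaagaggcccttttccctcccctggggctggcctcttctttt
Krt18 (chr15:102027966-102028215, plus strand): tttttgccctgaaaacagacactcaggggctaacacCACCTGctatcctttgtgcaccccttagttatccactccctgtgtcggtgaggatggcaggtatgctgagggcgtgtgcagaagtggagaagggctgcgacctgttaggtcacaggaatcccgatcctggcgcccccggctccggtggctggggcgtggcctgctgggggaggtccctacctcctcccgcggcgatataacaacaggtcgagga
The Epcam window held 2 E-boxes, whose first letters lay 187 and 19 bases before the start. The others held 1 each, at 93 bases for Cldn6, 111 for Krt8 and 214 for Krt18. Snai1 itself had 1 at 126 bases, and the windows of Vim and Zeb2 held none. CACCTG and CAGGTG are 1 motif read on both strands. The 7 genes have 10 windows, of which 5 held it. Among the 32851 RefSeq windows of this length, 17.2% held at least 1 copy and 2.06% at least 2. A match describes these letters only, and binding was not measured.

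Levels were compared between genes as CPM per kilobase, counting transcripts of at least 1000 bases. In the Neg ESCs Vim was the most abundant of the 10, at 108 ± 2.12 CPM per kilobase (SD, n = 3), followed by Cdh1 at 34.0 ± 1.03 (SD, n = 3). Zeb1 (13.5 ± 1.15) and Epcam (11.4 ± 0.893) came next, their ranges meeting at 12.4, and Zeb2 was lowest at 0.593 ± 0.134. In the 3xKD EpiLCs Vim was still first at 96.0 ± 6.07, but Epcam (64.6 ± 2.98) and Cdh1 (63.4 ± 1.82) followed with overlapping libraries. Cdh2 stood at 0.929 ± 0.227 in the Neg ESCs and 1.78 ± 0.113 in the 3xKD EpiLCs, far under Cdh1 in every group. Vim was the first of the 10 by this measure in all 4 groups, and Cdh1 among the first 3.

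**Figure D1:**
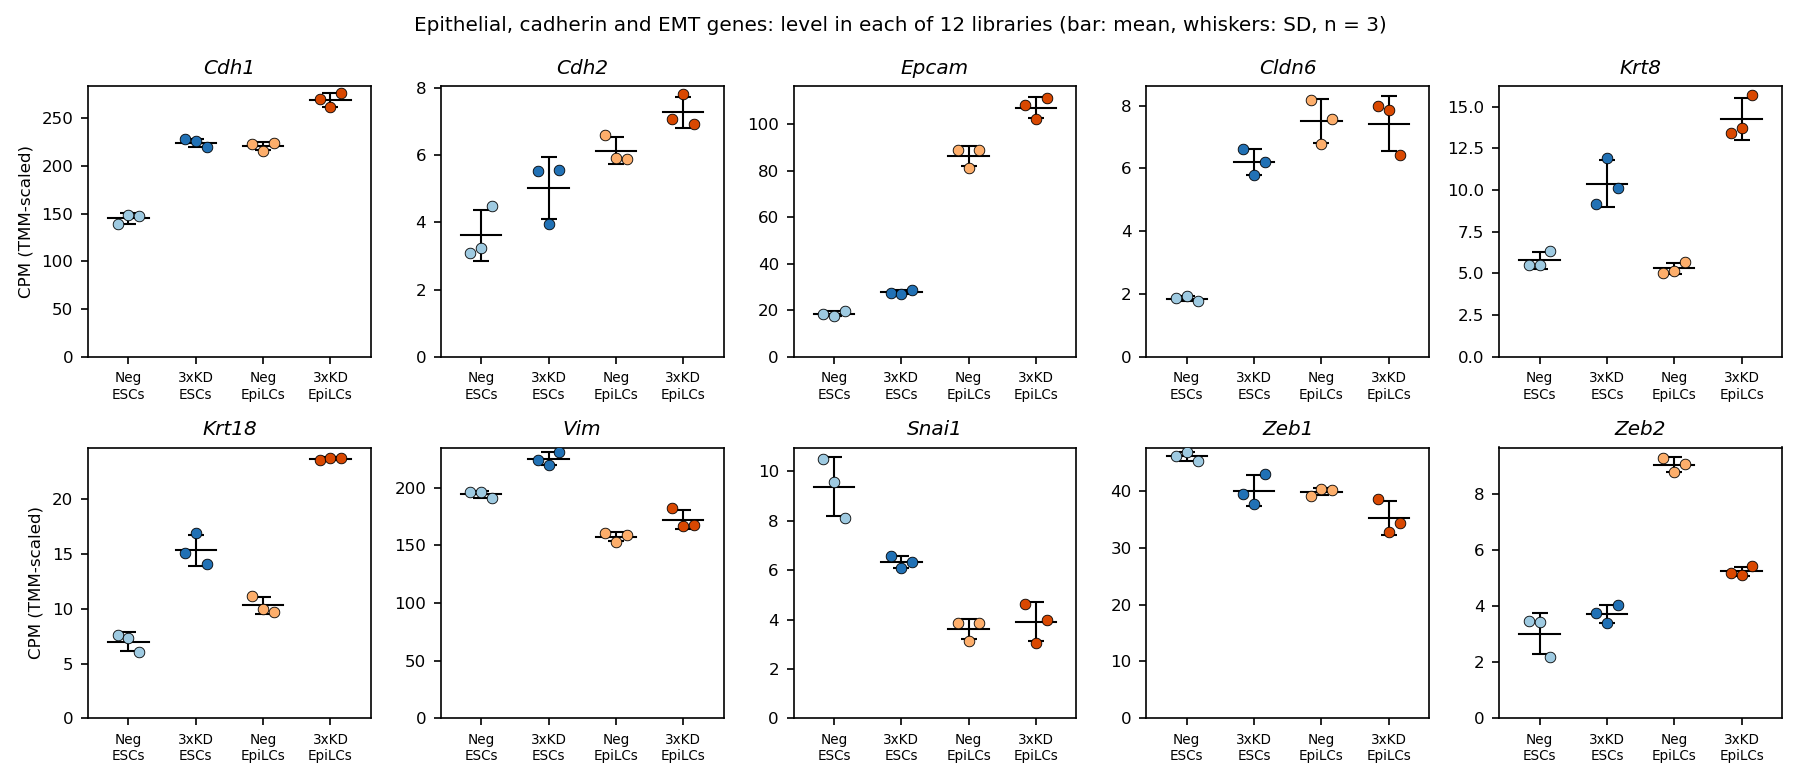
Level of the 10 genes in each of the 12 libraries, in CPM on linear axes from 0, by group. Points are libraries, horizontal bars the mean and whiskers the SD of 3 libraries; the epithelial genes are highest in 3xKD EpiLCs (Cldn6 level with Neg EpiLCs), Snai1 is highest in Neg ESCs and Zeb2 in Neg EpiLCs.

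The first question was how the triple knockdown moved these genes in ESCs. Of the 10, 4 rose in the 3xKD ESCs (Cdh1, Cldn6, Krt8 and Krt18) by the edgeR test, where 15.3% of all genes tested were called, 8.50% higher and 6.78% lower. None was called lower by edgeR or DESeq2, and 2 (Snai1 and Zeb1) were lower at an unadjusted p under 0.05. Without Neg ESCs replicate 3 the count of members called was 7, with Epcam, Cdh2 and Snai1 (lower) added. The median log2 fold change was 0.51 over the 10 genes and 0.03 over all genes. At an adjusted p under 0.01 without the fold limit, 7 of the 10 differed, against 31.6% of all genes. In a bulk library, a change in the share of cells that express a gene and a change in RNA per cell cannot be told apart.

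Cdh1 (chr8:107329941-107396880 in GRCm39, plus strand) counted 139, 149 and 148 CPM in the Neg ESCs, 228, 226 and 220 in the 3xKD ESCs, 223, 216 and 224 in the Neg EpiLCs, and 270, 262 and 277 in the 3xKD EpiLCs. The 3xKD ESCs and Neg EpiLCs overlapped, and the other groups stood apart, with Neg ESCs lowest. In ESCs the knockdown raised Cdh1 1.55-fold (log2 fold change 0.63 ± 0.035 SE, edgeR adjusted p = 5.1e-10). In EpiLCs Cdh1 was 1.22-fold higher in 3xKD (0.29 ± 0.034, edgeR adjusted p = 3.5e-06), under the fold limit though with no overlap between libraries. The 2 effects differed by -0.34 ± 0.049 (edgeR adjusted p = 0.00012, EpiLC effect minus ESC effect). Cdh1 rose with differentiation in Neg cells by 0.60 ± 0.035 (edgeR adjusted p = 3e-10), while the same step in 3xKD cells gave 0.26 ± 0.034 and was not called. The call in Neg cells sits at the fold limit and was lost at 0.57 without Neg ESCs replicate 1 or with library size alone as the scale.

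Cdh2 (chr18:16700793-16942381, minus strand) was read at 35 to 122 estimated counts per library, so its values are less precise. It gave 3.10, 3.23 and 4.49 CPM in the Neg ESCs, 5.53, 3.96 and 5.55 in the 3xKD ESCs, 6.59, 5.91 and 5.88 in the Neg EpiLCs, and 7.07, 7.80 and 6.93 in the 3xKD EpiLCs. The 2 ESC groups overlapped and the EpiLC groups lay above them. N-cadherin is also made by neural progenitors, whose 8 markers summed to 70.8 to 84.3 CPM in the Neg ESCs, 79.8 to 82.5 in the 3xKD ESCs, 120 to 124 in the Neg EpiLCs and 55.4 to 58.1 in the 3xKD EpiLCs, and their part in the Cdh2 values was not tested. The knockdown effects, 0.45 ± 0.17 in ESCs (edgeR adjusted p = 0.044) and 0.25 ± 0.15 in EpiLCs (0.24), were not called. In ESCs the value was called at 0.66 without Neg ESCs replicate 3 and at 0.59 without 3xKD ESCs replicate 2. Cdh2 rose from ESCs to EpiLCs in Neg cells (0.74 ± 0.17, edgeR adjusted p = 0.0014), and the step in 3xKD cells, 0.54 ± 0.16, was under the limit. The Neg call was lost at 0.73 (edgeR adjusted p = 0.013) with transcript-length offsets. With upper-quartile scaling the 3xKD step was called at 0.61 (edgeR adjusted p = 0.0044). The 2 steps did not differ by the call (-0.20 ± 0.23, edgeR adjusted p = 0.64).

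The balance of the 2 cadherins is the usual readout of a cadherin switch. The log2 ratio of Cdh2 to Cdh1 in TPM, the length-scaled abundance that Salmon gives, was -5.45 ± 0.28 (SD, n = 3) in the Neg ESCs, -5.62 ± 0.18 in the 3xKD ESCs, -5.27 ± 0.11 in the Neg EpiLCs and -5.34 ± 0.13 in the 3xKD EpiLCs. All groups compared overlapped. The differences lay between -0.17 and 0.28, with 2-sided exact permutation p from 0.2 to 0.5, where 0.1 is the smallest p that 3 against 3 can give. Only the step from ESCs to EpiLCs in 3xKD (0.28) was larger than the pooled SD of its libraries (0.16).

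Epcam (chr17:87943407-87958557, plus strand), an adhesion protein of epithelia and of ESCs, had the largest change with differentiation. It counted 18.5, 17.5 and 19.6 CPM in the Neg ESCs, 27.4, 27.1 and 28.9 in the 3xKD ESCs, 88.7, 81.1 and 88.8 in the Neg EpiLCs, and 108, 102 and 111 in the 3xKD EpiLCs. The 4 groups did not overlap. From ESCs to EpiLCs Epcam rose 4.63-fold in Neg (2.21 ± 0.057, edgeR adjusted p = 6.9e-15) and 3.86-fold in 3xKD (1.95 ± 0.054, edgeR adjusted p = 2.7e-14). The knockdown effect was 0.578 ± 0.061 in ESCs (edgeR adjusted p = 7.7e-07), just inside the fold limit and so not called. It was called, at 0.59 to 0.63, without a low-count filter, with upper-quartile scaling and in 6 of the 12 fits that left out a library. In EpiLCs it was 0.31 ± 0.049, and the difference of the effects was -0.26 ± 0.078 (edgeR adjusted p = 0.029), not called, but was called at -0.33 (edgeR adjusted p = 0.0072) without Neg EpiLCs replicate 2.

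Cldn6 (chr17:23898223-23901420, plus strand), a tight junction claudin of early embryonic epithelia, showed the widest gap between the states in its response. It stood at 1.86, 1.93 and 1.78 CPM in the Neg ESCs, 6.63, 5.79 and 6.20 in the 3xKD ESCs, 8.19, 6.78 and 7.58 in the Neg EpiLCs, and 8.0, 7.86 and 6.43 in the 3xKD EpiLCs. Neg ESCs were low, and the EpiLC groups overlapped each other. The knockdown raised Cldn6 3.34-fold in ESCs (1.74 ± 0.15, edgeR adjusted p = 6.3e-08). In EpiLCs the effect was -0.02 ± 0.12, with a 95% interval from -0.28 to 0.24 that does not reach the ESC value. The difference was -1.76 ± 0.19 (edgeR adjusted p = 7.4e-06). Accordingly Cldn6 rose with differentiation 4.05-fold in Neg (2.02 ± 0.15, edgeR adjusted p = 4.7e-09), and 1.2-fold in 3xKD, which was not called (0.26 ± 0.12, adjusted p = 0.11). The counts behind this gene were 21 to 133 per library.

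Krt8 (chr15:101905133-101912917, minus strand) and Krt18 (chr15:101936615-101940462, plus strand) encode partner keratins of simple epithelia, which pair into 1 filament, and 23697 bases separate the genes. Krt8 counted 5.49, 5.50 and 6.37 CPM in the Neg ESCs, 9.15, 11.9 and 10.1 in the 3xKD ESCs, 5.05, 5.17 and 5.69 in the Neg EpiLCs, and 13.4, 13.7 and 15.7 in the 3xKD EpiLCs. Krt18 counted 7.62, 7.36 and 6.02 CPM in the Neg ESCs, 15.1, 16.9 and 14.1 in the 3xKD ESCs, 9.73 to 11.2 in the Neg EpiLCs, and 23.6, 23.8 and 23.8 in the 3xKD EpiLCs. For both keratins every 3xKD library of either state lay above every Neg library. In ESCs Krt8 rose 1.78-fold (0.83 ± 0.12, edgeR adjusted p = 2.7e-05) and Krt18 2.22-fold (1.15 ± 0.10, edgeR adjusted p = 1.1e-07). In EpiLCs the rises were 2.69-fold for Krt8 (1.43 ± 0.12, edgeR adjusted p = 5.6e-08) and 2.30-fold for Krt18 (1.2 ± 0.094, edgeR adjusted p = 2.8e-08). The effects of the 2 states did not differ by the call (Krt8 0.60 ± 0.17, edgeR adjusted p = 0.023; Krt18 0.05 ± 0.14, 0.93), though Krt8 was called at 0.71 without 3xKD ESCs replicate 2.

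With differentiation Krt8 had a log2 fold change of -0.14 ± 0.13 in Neg cells, with overlapping libraries, and 0.46 ± 0.11 in 3xKD cells, neither called. Krt18 gave 0.575 ± 0.11 in Neg cells, just inside the limit, and 0.62 ± 0.090 in 3xKD cells, which was called. The Neg value was called at 0.61 to 0.64 in 6 of the 12 fits without a library and at 0.60 with DESeq2, and the 3xKD call was lost at 0.57 without 3xKD ESCs replicate 3. The log2 ratio of Krt8 to Krt18 in TPM differed by -0.69 between EpiLCs and ESCs in Neg cells, the groups apart (exact permutation p = 0.1, the smallest possible), and its difference in 3xKD cells was -0.16, with overlapping libraries (exact permutation p = 0.2). Keratins 8 and 18 are also made by trophoblast. The sum of 8 trophoblast markers was 51.1 to 55.7 CPM in the Neg ESCs, 66.0 to 72.7 in the 3xKD ESCs, 11.8 to 14.2 in the Neg EpiLCs and 22.7 to 26.9 in the 3xKD EpiLCs. All 8 had a count in each group, the knockdown gave 2 rises and 1 fall among them in ESCs (3 and 1 in EpiLCs), Elf5 stayed under 0.1 CPM in each group mean, and Cdx2 was at 2.86 CPM in the Neg ESCs and 0.502 CPM in the 3xKD ESCs. The trophoblast sums moved with the keratins under the knockdown. With differentiation these sums fell in both lines, while Krt18 gave 0.575 in Neg and 0.62 in 3xKD and Krt8 -0.14 and 0.46. The part of trophoblast markers in the keratin values was not tested. Primitive endoderm also makes these keratins, and its 10 markers summed to 51.3 to 52.9 CPM in the Neg ESCs, 50.7 to 53.6 in the 3xKD ESCs, 39.4 to 43.8 in the Neg EpiLCs and 30.6 to 32.3 in the 3xKD EpiLCs. Of these 10, 2 were called higher in ESCs (Gata6 0.78 ± 0.13 and Dab2 1.2 ± 0.22) and 4 lower in EpiLCs, and their part in the keratin values was not tested either. Over all genes 8.50% were called higher and 6.78% lower in ESCs, and 7.88% and 5.35% in EpiLCs.

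**Figure D2:**
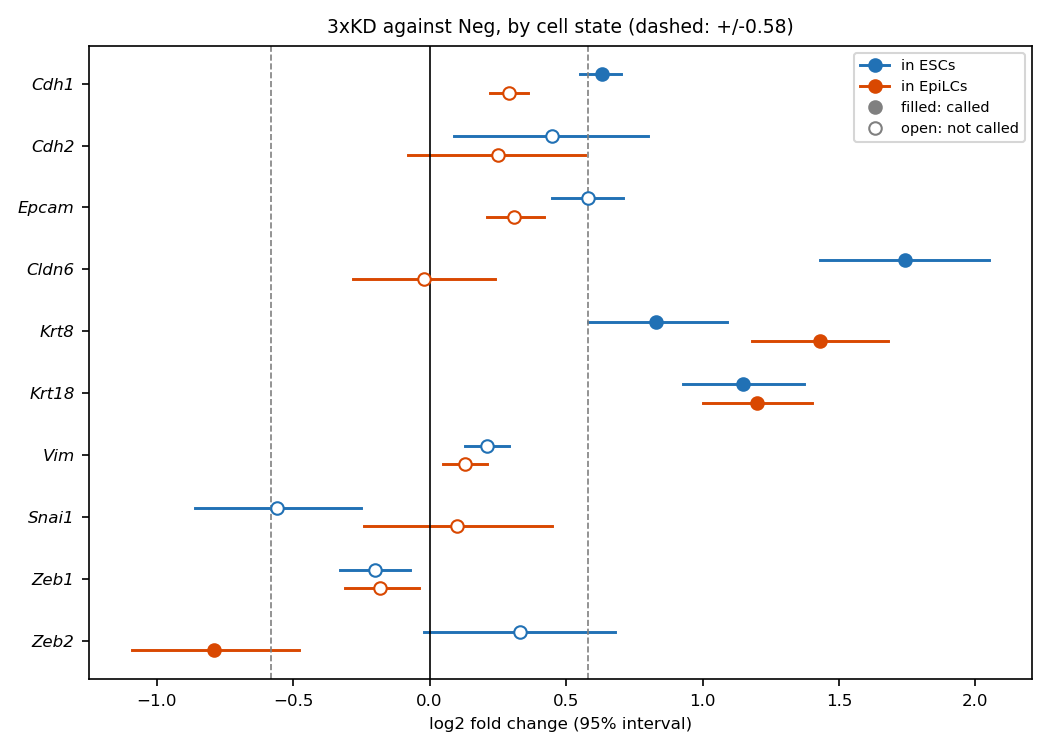
Log2 fold change of 3xKD against Neg for the 10 genes in ESCs (blue) and EpiLCs (orange), with 95% intervals; filled points were called and dashed lines mark the fold limit of 0.58. Krt8 and Krt18 are called in both states, Cdh1 and Cldn6 in ESCs, and Zeb2 is called lower in EpiLCs.

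In EpiLCs 3 of the 10 genes were called under the knockdown, Krt8 and Krt18 higher and Zeb2 lower, where 13.2% of all genes were called, 7.88% higher and 5.35% lower. The median was 0.19 over the 10 genes and 0.03 over all. Of the 10, 6 had an edgeR adjusted p under 0.01, against 29.9% of all genes.

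Vim (chr2:13578738-13587639, plus strand), the filament protein of mesenchymal cells that cultured ESCs also make, was abundant and moved little. It counted 196, 196 and 191 CPM in the Neg ESCs, 224, 220 and 231 in the 3xKD ESCs, 161, 153 and 159 in the Neg EpiLCs, and 182, 167 and 168 in the 3xKD EpiLCs. The 4 groups did not overlap, and 3xKD lay above Neg in both states. The effects were 0.21 ± 0.037 in ESCs (edgeR adjusted p = 0.00016) and 0.13 ± 0.037 in EpiLCs (edgeR adjusted p = 0.0096), under the fold limit. EpiLCs were lower than ESCs by -0.30 ± 0.037 in Neg and -0.38 ± 0.037 in 3xKD, also not called.

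Snai1 (chr2:167380113-167384734, plus strand), the zinc-finger repressor of Cdh1, was highest in the Neg ESCs. It counted 10.5, 9.56 and 8.11 CPM there, 6.57, 6.10 and 6.33 in the 3xKD ESCs, 3.88, 3.15 and 3.85 in the Neg EpiLCs, and 4.65, 3.07 and 4.0 in the 3xKD EpiLCs. The EpiLC groups overlapped each other and lay under both ESC groups. Snai1 fell with differentiation in Neg (-1.36 ± 0.15, edgeR adjusted p = 1.3e-06) and in 3xKD (-0.70 ± 0.16, edgeR adjusted p = 0.0015); the 3xKD call was lost at -0.55 without 3xKD EpiLCs replicate 2 and at -0.68 (adjusted p = 0.011) with transcript-length offsets. The knockdown effect in ESCs was -0.56 ± 0.15 (edgeR adjusted p = 0.0052), not called, though it was at -0.66 without Neg ESCs replicate 3. In EpiLCs it was 0.10 ± 0.16. The difference of the effects, 0.66 ± 0.22, had an edgeR adjusted p of 0.052.

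Zeb1 (chr18:5591851-5775467, plus strand) and Zeb2 (chr2:44873644-45007464, minus strand) encode paired zinc-finger repressors of the EMT, and here they took different courses. Zeb1 counted 46.1, 46.9 and 45.3 CPM in the Neg ESCs, 39.4, 37.7 and 43.0 in the 3xKD ESCs, 39.1, 40.3 and 40.1 in the Neg EpiLCs, and 38.5, 32.8 and 34.3 in the 3xKD EpiLCs. Zeb2 counted 3.46, 3.44 and 2.19 CPM in the Neg ESCs, 3.75, 3.41 and 4.05 in the 3xKD ESCs, 9.30, 8.79 and 9.10 in the Neg EpiLCs, and 5.21, 5.11 and 5.43 in the 3xKD EpiLCs. Zeb1 was not called in any comparison, with log2 fold changes from -0.21 to -0.18 between groups. Zeb2 was high in the Neg EpiLCs and lower in each of the other groups, which overlapped only among the ESCs. With differentiation Zeb2 rose 3.05-fold in Neg (1.61 ± 0.15, edgeR adjusted p = 1.7e-07), and its value in 3xKD was 0.49 ± 0.15, not called.

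In EpiLCs the knockdown lowered Zeb2 to 0.58-fold (-0.79 ± 0.14, edgeR adjusted p = 0.00028), while in ESCs its effect was 0.33 ± 0.17 and not called. The difference was -1.12 ± 0.22 (edgeR adjusted p = 0.0018). These calls depend on how transcript length enters. With the TPM-weighted average transcript length of each library as an offset, the EpiLC effect was 0.99 (adjusted p = 0.36) and the rise in Neg 0.57 (0.60). In the 3xKD EpiLCs that average ran from 457 to 3180 bases for Zeb2. By it replicate 2 had 11.2 CPM per kilobase, against 1.64 in replicate 1 and 2.0 in replicate 3. Yet 96.8% to 98.8% of the Zeb2 reads in this group were assigned to transcripts of at least 1000 bases. With offsets from those transcripts alone, an alternative chosen after the data were seen, the EpiLC effect was -0.61 (adjusted p = 0.0065), the rise in Neg 1.73 (5.1e-07) and the difference -0.97, no longer called (0.013). The 39 to 151 reads per library limit the precision.

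**Figure D3:**
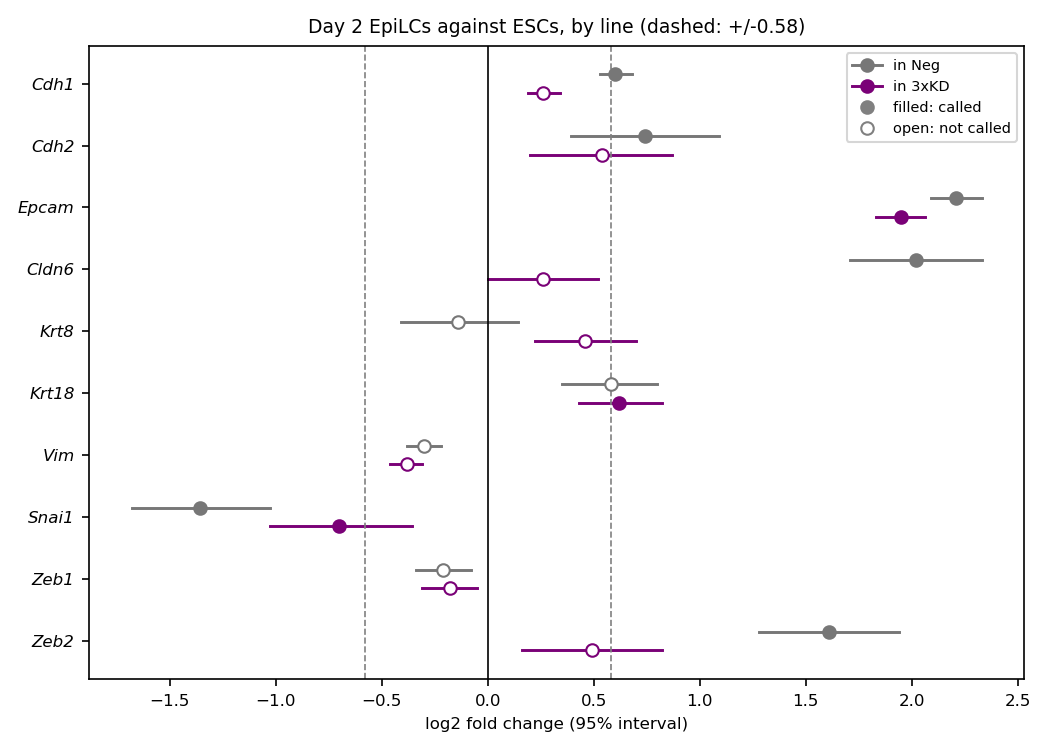
Log2 fold change of day 2 EpiLCs against ESCs for the 10 genes in Neg (grey) and 3xKD (purple), with 95% intervals; filled points were called. Epcam and Snai1 are called in both lines, while Cdh1, Cdh2, Cldn6 and Zeb2 are called in Neg and lie nearer 0 in 3xKD. For Cdh2 the difference between the lines was not called.

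Over the step from ESCs to EpiLCs, 5 of the 10 genes rose in Neg cells (Cdh1, Cdh2, Epcam, Cldn6 and Zeb2) and Snai1 fell, where 20.8% of all genes were called, 9.78% higher and 11.0% lower. In 3xKD cells Epcam and Krt18 rose and Snai1 fell, where 18.7% were called, 9.42% higher and 9.32% lower. The medians over the 10 were 0.59 and 0.36, and 0.01 over all genes in each line. For the difference between the knockdown effects, 3 of the 10 were called (Cdh1, Cldn6 and Zeb2, all with the lower effect in EpiLCs), where 5.26% of all genes were called in that direction and 4.76% in the other. With transcript-length offsets the count was 1, Cldn6. None was called in the other direction by edgeR or DESeq2, and 2 (Snai1 and Krt8) had an unadjusted p under 0.05.

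With differentiation the claudins, which seal tight junctions, moved in both directions. Cldn4 fell with differentiation while Cldn6 rose in Neg cells. It went from 148 to 20.7 CPM in Neg (-2.85 ± 0.058, edgeR adjusted p = 3.7e-16) and from 176 to 35.7 CPM in 3xKD (-2.30 ± 0.054, edgeR adjusted p = 3.8e-15). Cldn9, which lies 137 bases from Cldn6 on the other strand, was likewise lowest in the Neg ESCs. The group means of Cldn3, Cldn5 and Cldn7 were also lowest there. Cldn9 had group means of 0.200 CPM in the Neg ESCs, 0.895 in the 3xKD ESCs, 1.39 in the Neg EpiLCs and 1.97 in the 3xKD EpiLCs. It rose with the knockdown in ESCs (2.01 ± 0.37, edgeR adjusted p = 0.00032). Cldn7, at 1.12, 4.53, 1.89 and 3.48 CPM in the same order, rose with the knockdown in ESCs (2.03 ± 0.25) and in EpiLCs (0.88 ± 0.23). Cldn5, which lies on chromosome 16, rose likewise (1.80 ± 0.36 and 1.29 ± 0.29). Cldn3 and Cldn4 rose in EpiLCs (0.75 ± 0.12 and 0.79 ± 0.062), and their values in ESCs were 0.51 ± 0.12 and 0.25 ± 0.049, under the fold limit. No claudin was called lower under the knockdown in either state. The levels of Cldn5, Cldn7 and Cldn9 rest on few reads.

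**Figure D4:**
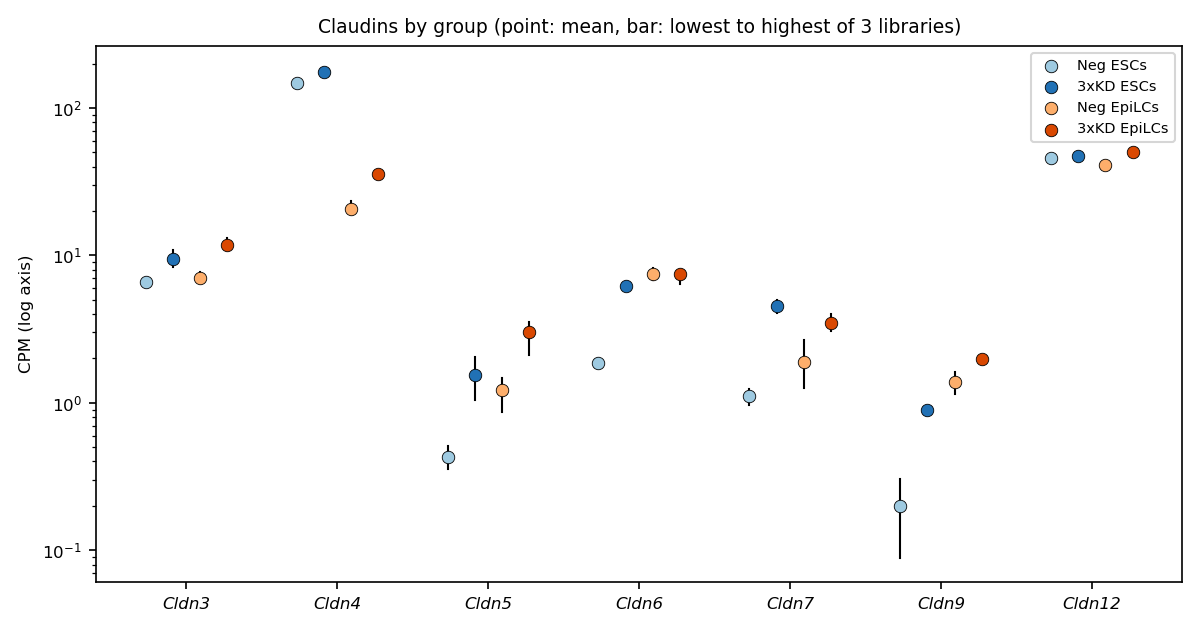
Level of the claudins with a mean of at least 1 CPM, in CPM on a log axis, by group; points are means and bars the range of 3 libraries. Cldn4 drops from ESCs to EpiLCs in both lines, while Cldn3, Cldn5, Cldn6, Cldn7 and Cldn9 have their lowest mean in Neg ESCs. Cldn3 and Cldn12 are drawn for completeness, chosen after their values were seen.

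Around these genes, 7 lists of related genes were counted, none of them holding the 10. The lists were chosen with earlier results of these data known, so their counts are a description. Under the knockdown 8.50% of all genes tested were called higher and 6.78% lower in ESCs, and 7.88% and 5.35% in EpiLCs. Of the 17 tight junction genes tested, 5 rose with the knockdown in ESCs (median log2 fold change 0.51), and 5 rose in EpiLCs (0.50; 3 without 3xKD EpiLCs replicate 1). None fell in either state by edgeR or DESeq2, and 0 in ESCs and 2 in EpiLCs were lower at an unadjusted p under 0.05. Tjp3, a zonula occludens scaffold, led in EpiLCs at 2.20 ± 0.15 (edgeR adjusted p = 5e-09). Among 17 other keratin and desmosome genes, 8 rose in ESCs (median 0.89), none fell by edgeR or DESeq2 and 2 were lower at an unadjusted p under 0.05, and 6 rose and 1 fell in EpiLCs (0.65). Krt20 (2.85 ± 0.56), Krt7 (2.17 ± 0.22) and the desmosomal cadherin Dsc2 (2.04 ± 0.24) led in ESCs, and the plakin linkers Ppl (1.61 ± 0.19) and Evpl (1.24 ± 0.075), with Krt7 (1.44 ± 0.22), in EpiLCs; Ppl lies on chromosome 16. Perp, a desmosome-associated membrane protein, was the gene that fell (-0.78 ± 0.13). Krt7 is also among the trophoblast markers given above.

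Of the 19 genes of the cadherin and adherens junction list, 1 rose and 2 fell with the knockdown in ESCs (median 0.06), a share near the 15.3% of all genes, namely Nectin2 (0.68 ± 0.035), Cdh4 (-1.37 ± 0.18) and the catenin Ctnnd2 (-0.81 ± 0.073). In EpiLCs, where 13.2% of all genes were called, 1 rose (median 0.15, and 2 were called without Neg EpiLCs replicate 3). This was the P-cadherin gene Cdh3 (1.03 ± 0.11, edgeR adjusted p = 9.6e-07). None fell there by edgeR or DESeq2, and 3 were lower at an unadjusted p under 0.05. Cdh3 had group means of 4.24 CPM in the Neg ESCs, 4.44 in the 3xKD ESCs, 14.8 in the Neg EpiLCs and 30.2 in the 3xKD EpiLCs, so that its knockdown effect was larger in EpiLCs by 0.99 ± 0.19 (edgeR adjusted p = 0.0012). This is the opposite sign to Cdh1. Of 12 polarity genes, 2 rose and 1 fell in ESCs (median 0.29), where 15.3% of all genes were called. Llgl2, a regulator of basolateral identity, stood at 0.91 ± 0.039 in ESCs. None of the 12 was called in EpiLCs by edgeR (median 0.31), where 13.2% of all genes were. There 7 were higher and 1 lower at an unadjusted p under 0.05, DESeq2 called 1, and 1 was called in the edgeR fits without 3xKD ESCs replicate 1, Neg EpiLCs replicate 1 or 3, or 3xKD EpiLCs replicate 2 or 3.

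Among regulators of epithelial identity the calls went both ways. Of 18 regulators and surface proteins, 1 rose and 4 fell with the knockdown in ESCs (median 0.21), and 3 rose and 2 fell in EpiLCs (0.13). Among all genes tested, 8.50% were called higher and 6.78% lower in ESCs, and 7.88% and 5.35% in EpiLCs. The 5 calls in ESCs were 3 without Neg ESCs replicate 2 or 3xKD ESCs replicate 3. Grhl2, a transcription factor that activates Cdh1 and claudin genes, fell in both states (-1.30 ± 0.081 in ESCs, edgeR adjusted p = 1.7e-09, and -0.84 ± 0.071 in EpiLCs, edgeR adjusted p = 6.2e-08), from 21.4 to 8.67 CPM and from 38.7 to 21.6 CPM. The secreted and membrane protease genes Prss8 (0.80 ± 0.21 in ESCs, 1.29 ± 0.23 in EpiLCs) and St14 (0.70 ± 0.052 in EpiLCs) rose. With differentiation the splicing regulators split, as Esrp1 rose by 3.89 ± 0.15 and Esrp2 fell (-2.51 ± 0.19) in Neg cells, while the epithelial factors Elf3 (-4.08 ± 0.067) and Grhl3 (-2.94 ± 0.10) fell.

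Of 24 mesenchymal and cytoskeletal genes tested, 12 rose and 2 fell with the knockdown in ESCs (median 0.76), and 10 rose and 1 fell in EpiLCs (0.61), where 8.50% and 7.88% of all genes were called higher. The others did not pass the call. Tagln (2.33 ± 0.30), Mmp9 (1.43 ± 0.25) and Tpm2 (1.42 ± 0.18), which encode an actin-binding protein, a matrix protease and a tropomyosin, led in ESCs, counting only genes averaging 1 CPM or more, as for the named genes of each list. In EpiLCs Tpm2 (1.11 ± 0.14), Tagln (0.94 ± 0.24) and the fibronectin gene Fn1 (0.94 ± 0.041, edgeR adjusted p = 4.5e-11) led, and Nes fell (-0.73 ± 0.069). Nes, at a mean of 55.7 CPM over all libraries, is also among the neural progenitor markers summed above. Fn1 fell with differentiation in Neg, from 516 to 97.1 CPM, and in 3xKD, from 693 to 186 CPM. The summed level of 9 fibroblast markers was 10.7 to 13.9 CPM in the Neg ESCs, 31.5 to 32.6 in the 3xKD ESCs, 6.89 to 8.52 in the Neg EpiLCs and 14.0 to 17.6 in the 3xKD EpiLCs. Of the 9, 7 passed the low-count filter, Thy1 (0.85 ± 0.17 in ESCs, 0.77 ± 0.19 in EpiLCs) and Pdgfrb (1.75 ± 0.12, 1.57 ± 0.15) were called higher in both states (in EpiLCs 1 of them without Neg EpiLCs replicate 1, Neg EpiLCs replicate 3 or 3xKD EpiLCs replicate 1), Col3a1 was under 0.1 CPM in each group mean, and their part in the mesenchymal counts was not tested.

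Of 15 other EMT transcription factor genes, 3 rose and 1 fell with the knockdown in ESCs (median 0.46), where 15.3% of all genes were called. In EpiLCs 2 rose (0.40), a share near the 13.2% of all genes called there. None fell in EpiLCs by edgeR or DESeq2, and 1 was lower at an unadjusted p under 0.05. Foxc2 (1.90 ± 0.29), Foxc1 (1.36 ± 0.24) and Twist1 (1.1 ± 0.16) rose in ESCs, where Klf8 fell (-0.88 ± 0.057). In EpiLCs Snai3 (1.23 ± 0.27) and Snai2 (1.11 ± 0.24), relatives of Snai1, rose, the latter gene lying on chromosome 16. These genes were low, with Snai2 at 1.27 CPM in the Neg EpiLCs and 2.76 in the 3xKD EpiLCs, and Twist1 at 2.34 CPM in the Neg ESCs and 5.06 in the 3xKD ESCs. Gsc, a primitive streak factor, was at 2.95 CPM in the Neg ESCs and 0.216 CPM in the Neg EpiLCs. The 8 mesoderm and primitive streak markers summed to 22.2 to 35.3 CPM over all libraries, and T was at 0.554 CPM or lower in each group mean.

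**Figure D5:**
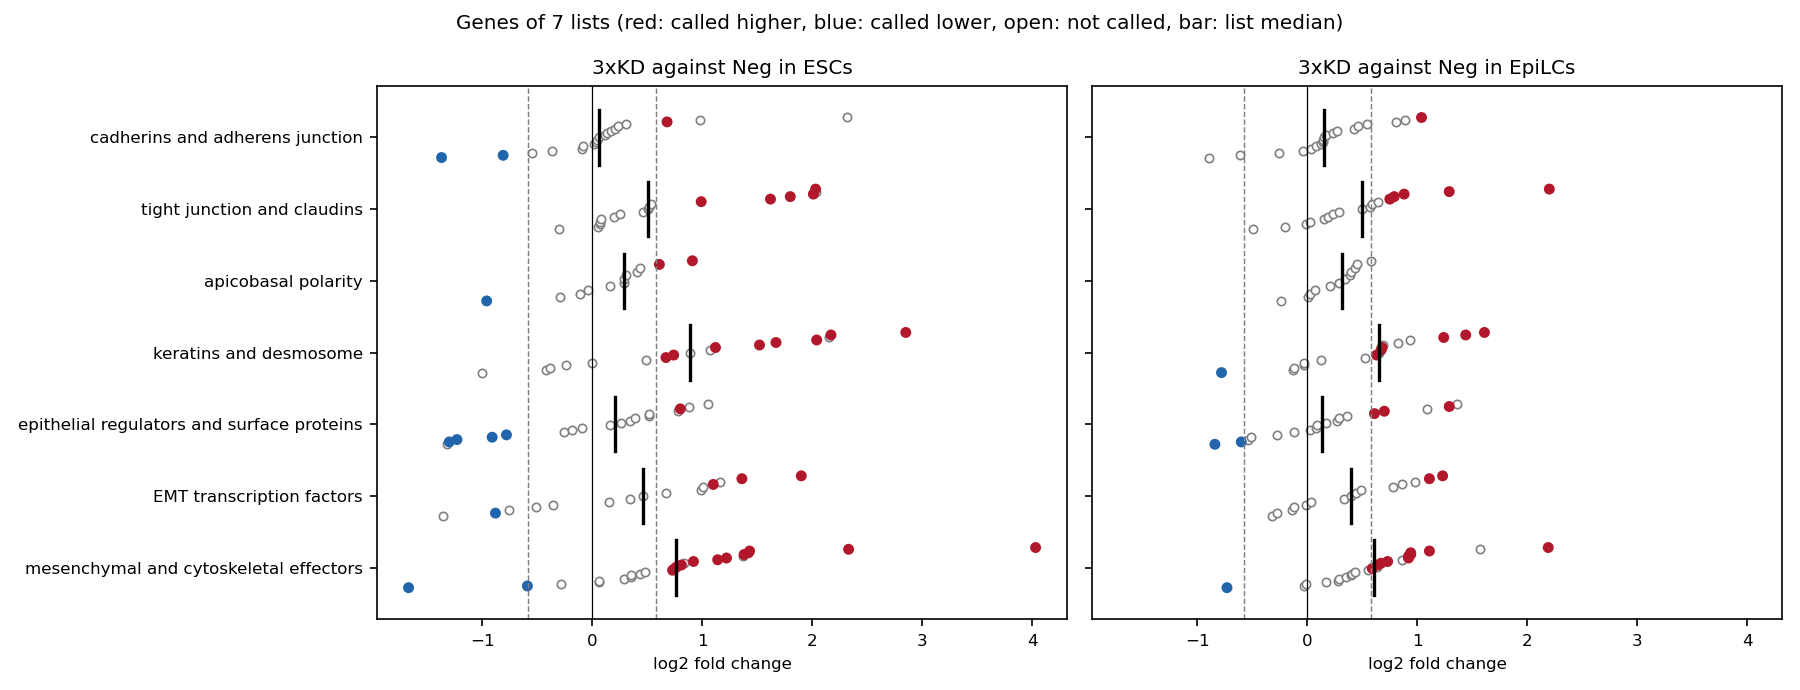
Log2 fold change of 3xKD against Neg for the tested genes of the 7 lists, in ESCs (left) and EpiLCs (right); red and blue points were called higher and lower, open points were not called, and black bars are list medians. The keratin and desmosome list (medians 0.89 and 0.65) and the mesenchymal list (0.76 and 0.61) lie furthest to the right.

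The genes whose pattern over the 12 libraries was most like that of 4 of the members were found by Pearson's r of log2 CPM over 15031 genes, as a description. Sema4c, a semaphorin, was most like Cdh1 (r = 0.993), with group means of 4.08 CPM in the Neg ESCs, 12.6 in the 3xKD ESCs, 12.2 in the Neg EpiLCs and 21.3 in the 3xKD EpiLCs. Nt5dc2 (0.990) and Rab3d (0.989) followed. Phc1 and Car4 (both 0.997) and Adgrl1 (0.996) were most like Epcam, and Map4, a microtubule-associated protein, (0.991), Npepps (0.989) and Myo6 (0.989) most like Vim. For Cdh2 the highest were Hmga2-ps1 (0.959), Mttp (0.951) and Syce3 (0.945), at low counts. The libraries form 4 groups of 3, so that r mostly reflects the group means.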

How the data were processed

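RNA was ribosomal-RNA depleted and sequenced as single-end directional libraries in 12 samples; the labels' molecule field names polyA RNA instead. Per the study's methods and the submitters' processing notes, the authors used bcl2fastq, Trim Galore 0.6.7, STAR 2.7.9a and Salmon 1.10.1 on GRCm39. The deposited files give, per transcript, estimated counts, TPM and effective lengths. Sums of the deposited estimated counts over 149132 transcripts gave 57180 gene totals, which were rounded, filtered at a total of 10 and scaled by TMM; 25446 genes were fitted in 4 groups with edgeR 4.0.16 (quasi-likelihood, Benjamini-Hochberg over all genes), in 5 contrasts. SE is the log2 fold change divided by the root of F. Deposited TPM values served only for ratios and as weights of the average transcript lengths, since the short transcript Rn7s1 took 15.19% to 29.69% of TPM. Those lengths entered the CPM per kilobase and the transcript-length offsets. Gene coordinates are from GENCODE vM39 (GRCm39). Directional kits keep antisense reads apart if counted by strand. The antisense genes overlapping members that have counts held at most 4.7 reads on average. Others have no counts in the deposited files and were not measured. Among these, Gm54102 shares 586 exon bases with Vim and Gm75792 shares 206 with Snai1. Genes named are the members, up to 3 called genes a direction, comparison and list (mean of at least 1 CPM, largest change), the 3 genes most alike 4 members, and the targets; Elf5, Cdx2, Col3a1, Thy1, Pdgfrb, Gata6, Dab2, T and Cldn3 were named after their values were seen. The members and lists were chosen with earlier results of these data known. Alternatives were DESeq2 1.42.0, other scalings and filters, transcript-length offsets, a replicate block and leaving out each library. Code was tested on simulated data. Intervals are 95%.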

Additional observations from a re-analysis of the deposited data

Results flagged for a closer look

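Of the 10 genes, 3 responded to the knockdown differently in EpiLCs and ESCs by the edgeR test of the difference itself (EpiLC effect minus ESC effect). For Cldn6 the difference was -1.76 on the log2 scale, and it was past the threshold in each alternative fit that was run. For Cdh1 it was -0.34, lost at -0.32 (edgeR adjusted p = 0.099) with transcript-length offsets. For Zeb2 it was -1.12, lost with transcript-length offsets of either kind. All 3 were lower in EpiLCs than in ESCs.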

How the results depend on the processing

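Over the fits that left out 1 library, 580 member values were called or not called as before, 17 passed their threshold newly and 3 lost it. Over the other settings these were 551, 31 and 6, and 2 reversed. A change of sign counted as a reversal only where either fit called the value. Values called in neither may thus differ in sign within the 580 and 551. For example, the knockdown effect on Zeb2 in ESCs went from 0.33 to -0.07 with transcript-length offsets. Both reversals were Zeb2 with transcript-length offsets (0.99 for the knockdown in EpiLCs and 1.06 for the difference of effects, neither called), where its average length ran from 457 to 3180 bases in the 3xKD EpiLCs. With these offsets 731 of all genes and 1 member were called for the difference, against 2549 and 3. At an adjusted p under 0.05 with no fold limit, all genes called were 10140 and 9694 for the knockdown in ESCs and EpiLCs, 11232 and 10838 for differentiation in Neg and 3xKD, and 4127 for the difference, against 3888, 3367, 5292, 4768 and 2549, and members called were 9 and 7 for the knockdown, 9 for differentiation in 3xKD and 5 for the difference. The log2 ratio of Zeb2 to Zeb1 changed by -0.18 with the knockdown in ESCs, 1.3 in EpiLCs and 0.55 with differentiation in Neg in TPM, by 0.54, -0.61 and 1.82 in estimated counts, and by 0.6, -0.4 and 2.06 in TPM of transcripts of at least 1000 bases, chosen after seeing the data; the last excludes the short transcripts by construction. Without 1 library the first ran from -0.60 to 0.46, the change of Cdh2 to Cdh1 with the knockdown in EpiLCs from -0.13 to 0.01, and members called in ESCs from 4 to 7. Behind the 1.3, the log2 ratios of Zeb2 to Zeb1 in TPM in the 3xKD EpiLCs were -2.8, 0.28 and -2.74, replicate 2 standing apart. With library size alone, the share of higher calls for the difference was 64.9% against 47.5%.

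The replicate numbers share no source in the labels. Of 18 same-number pairs, 0 had a correlation over 0.1 (-0.135 to 0.1 over 15032 genes), and 1 of 12 libraries correlated best with its own number. With the replicate block, all genes called were 3791, 3277, 5169, 4665 and 2323, Epcam passed in ESCs (0.58, edgeR adjusted p = 2.1e-07) and for the difference (-0.27, edgeR adjusted p = 0.0094), and no other member's call changed. Counts of 21 to 159 for Cdh2, Cldn6, Snai1 and Zeb2 limit their precision.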
